A study of Mus musculus with 26 samples.

Results

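The genes described here are 10 genes of vascular calcification and of the osteoprotegerin system, out of 54532 genes counted in the mouse aorta: Tnfrsf11b, Tnfsf11, Tnfrsf11a, Mgp, Enpp1, Alpl, Runx2, Spp1, Ank and Ibsp. They were chosen by name, by matching the Ensembl identifiers of the count files to the mm10 annotation (GENCODE M21, build GRCm38), and all 10 were found. RNA was sequenced from the aorta of male mice in 26 libraries of 6 groups. The 16 untreated libraries, 4 a group, were ascending and descending aorta of Fbn1 C1041G/+ mice and of their wild-type littermates. The remaining groups, with 5 libraries each, were ascending aorta of C1041G/+ mice given AGT-ASO, an antisense oligonucleotide against angiotensinogen, or a control ASO. All antisense libraries therefore carry the mutation, and they include neither a wild-type group nor descending aorta. Fbn1 encodes fibrillin-1, a microfibril protein of the elastic aorta, and the heterozygous C1041G mouse is used as a model for Marfan syndrome. The labels number the libraries without saying that each came from its own mouse, so p-values measure the spread between libraries.

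Calcification of the vessel wall is held in check by inhibitors that the wall itself makes. Smooth muscle cells secrete matrix Gla protein (Mgp), and ENPP1 and the transporter ANK supply extracellular pyrophosphate, which blocks crystal growth, whereas tissue-nonspecific alkaline phosphatase (Alpl) breaks pyrophosphate down. Osteoprotegerin (Tnfrsf11b) is a soluble decoy that binds RANKL (Tnfsf11) and keeps it from its receptor RANK (Tnfrsf11a). Runx2 is the master transcription factor of bone-forming cells, and osteopontin (Spp1) and bone sialoprotein (Ibsp) are mineral-binding matrix proteins.

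Promoter sequence is shown for the members that were higher in ascending aorta in the comparisons of region and have a RefSeq promoter entry. The RefSeq table (build GRCm38.p6) held 10 start sites of 8 members. Tnfrsf11b and Mgp had no entry in it. The 250 bases before the start were searched on both strands for the RUNX core TGTGGT (reverse complement ACCACA), for AP-1 (TGANTCA) and for a TATA box (TATAAA, reverse complement TTTATA). Among 32851 promoters of the same length, 14% held the RUNX letters, 6.75% the AP-1 letters and 12.4% the TATA letters. Capitals mark the matches, and each window is printed 5′ to 3′ on the strand of the gene, for Enpp1 at chr10:24712160-24712409, minus strand, for Spp1 at its first start at chr5:104434861-104435110, plus strand, and for Alpl at its first start at chr4:137796385-137796634, minus strand.
Enpp1: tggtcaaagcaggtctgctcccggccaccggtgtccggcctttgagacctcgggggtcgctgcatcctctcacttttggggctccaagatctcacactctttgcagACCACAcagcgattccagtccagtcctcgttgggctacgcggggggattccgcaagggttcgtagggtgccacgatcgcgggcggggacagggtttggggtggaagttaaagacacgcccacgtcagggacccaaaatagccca
Spp1: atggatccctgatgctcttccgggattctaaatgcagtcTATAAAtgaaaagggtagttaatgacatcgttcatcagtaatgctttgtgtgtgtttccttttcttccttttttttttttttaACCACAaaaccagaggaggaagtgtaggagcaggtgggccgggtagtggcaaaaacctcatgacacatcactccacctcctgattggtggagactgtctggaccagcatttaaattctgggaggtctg
Alpl: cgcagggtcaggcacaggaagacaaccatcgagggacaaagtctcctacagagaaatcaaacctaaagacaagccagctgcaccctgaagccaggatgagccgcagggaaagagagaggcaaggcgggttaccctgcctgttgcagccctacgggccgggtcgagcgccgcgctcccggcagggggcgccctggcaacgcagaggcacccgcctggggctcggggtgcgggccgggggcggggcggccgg
The RUNX letters began at -144 in Enpp1, at -128 in Spp1 and at -80 in Runx2, and were matched at 3 of the 10 starts. The TATA letters were matched at 4 starts, at -28 in Ibsp, -32 in Tnfsf11, -192 at the second start of Alpl and -211 at the first start of Spp1. The AP-1 letters were matched at none of the 10. A match describes the letters in this window only.

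Library totals ranged from 17171652 to 28554356 counts. Levels are given as CPM (counts scaled to the library total), normalised by TMM within each experiment, so the untreated and the antisense libraries are not on a common scale. Errors of CPM are SD, and errors of log2 fold changes are SE. Fold changes and p-values come from the edgeR quasi-likelihood test, with Benjamini-Hochberg adjustment over all genes of a comparison and a threshold of 0.05. Smooth muscle markers summed to 15298 to 28333 CPM in every group, the highest of the marker lists. Mesothelial markers, at 264.9 to 523.9 CPM in untreated ascending and 5.064 to 21.23 CPM in descending aorta, and heart muscle markers, at 269.3 to 964.4 and 66.3 to 238.1 CPM, moved with region. So did endothelial markers in wild-type mice, at 1216 to 1683 CPM in ascending and 2095 to 2876 CPM in descending aorta (2 of 6 called higher and 3 lower in ascending aorta), while in C1041G/+ mice their sums overlapped. C1041G/+ ascending library 2 stood apart, with thymus markers at 116.7 CPM against 2.551 to 13.96 CPM in the rest of its group. Results that rest on that library are given with and without it. Mitochondrial genes took 2.51 to 4.11% of counts in the untreated libraries, 3.76 to 7% with AGT-ASO and 5.52 to 11.1% with control ASO. Endothelial markers summed to 139.9 to 350.6 CPM and macrophage markers to 235.6 to 574.7 CPM in the antisense libraries, which were scaled apart. In untreated ascending aorta these sums were 1121 to 1808 and 665.9 to 1150 CPM.

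Per kilobase of exon, the order of the members' levels was led by the calcification inhibitors in every group. Mgp was the highest and Ank the next in all 6 groups, at 2530 ± 342 and 39.6 ± 4.69 CPM per kb (SD, n = 4) in wild-type ascending aorta. In that group Spp1 (19.3 ± 8.65), Tnfrsf11b (15.3 ± 3.7), Tnfrsf11a (7.93 ± 1.22) and Enpp1 (6.62 ± 1.19 CPM per kb) followed. The neighbours Spp1 and Tnfrsf11b differed by less than the SD of Spp1, and Tnfrsf11a and Enpp1 differed by slightly more than either SD. Alpl came next at 3.22 ± 0.535 CPM per kb. Ibsp, Runx2 and Tnfsf11 were the lowest members in all groups, at 0.459 ± 0.256, 0.198 ± 0.0354 and 0.0944 ± 0.0514 CPM per kb in wild-type ascending aorta. Spp1 was the third in both untreated ascending groups, and the sixth or the seventh in the descending groups. With the longest transcript as the length, Enpp1 came before Tnfrsf11a in wild-type ascending aorta, so their order depends on the length used.

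**Figure D1:**
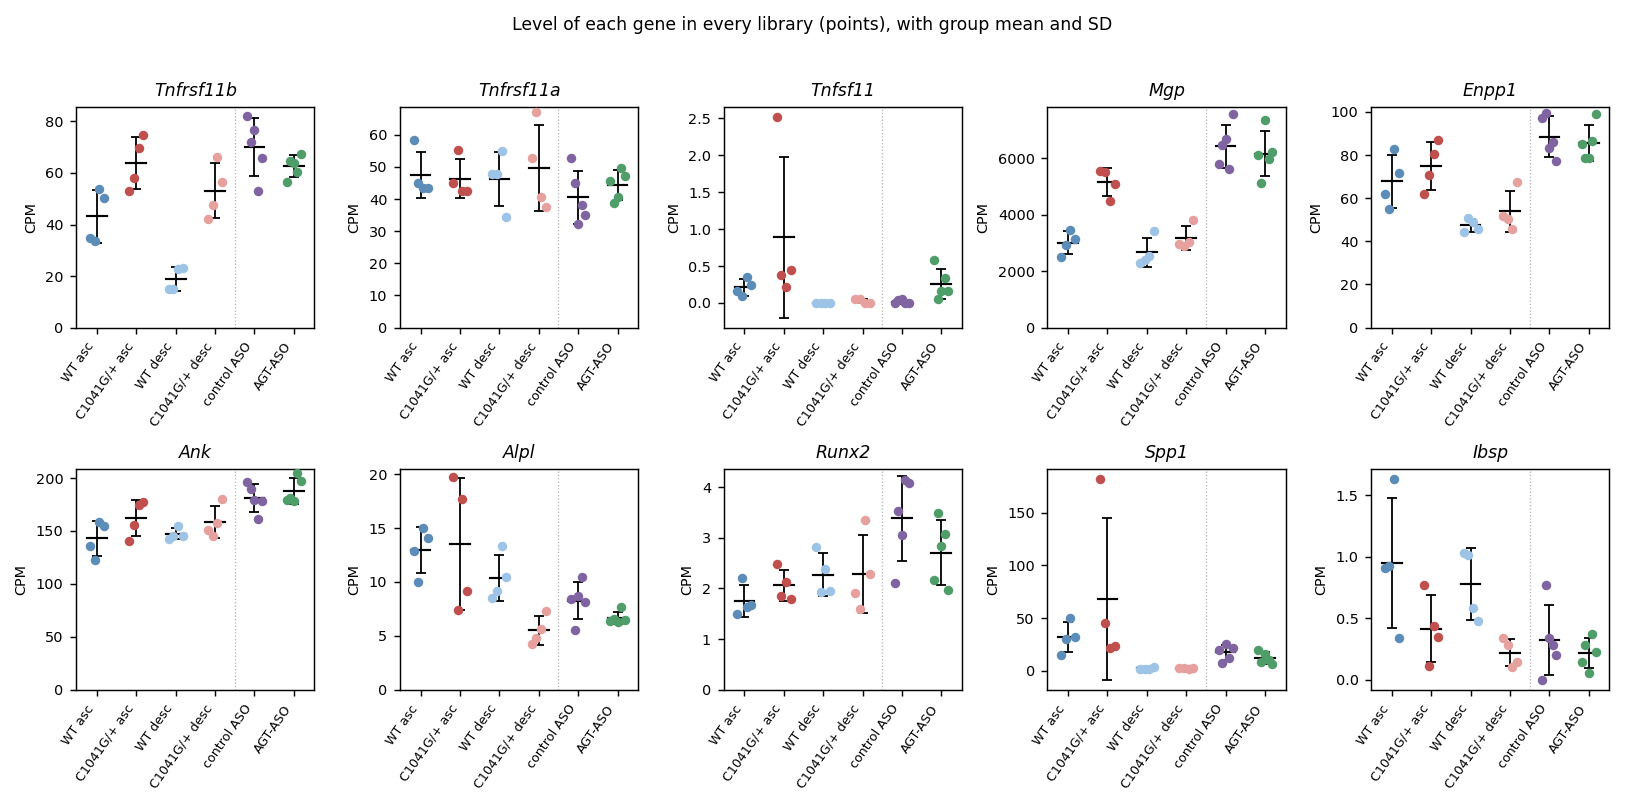
Level of the 10 genes in CPM (y axes, each with its own range) in every library of the 6 groups (x axes: WT, wild type; asc, ascending; desc, descending); points are libraries, and the bar and whiskers are the mean and SD. The dotted line separates the untreated from the antisense experiment, which were scaled apart. Tnfrsf11b is lowest in wild-type descending aorta (14.93 to 23.28 CPM), Mgp is higher in untreated C1041G/+ than in wild-type ascending aorta, and Spp1 is near 2 CPM in both descending groups.

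Tnfrsf11b, which encodes the decoy receptor osteoprotegerin (ENSMUSG00000063727, chromosome 15, 54250619 to 54278484), was higher in C1041G/+ than in wild-type descending aorta. The wild-type libraries 1, 3, 5 and 7 had 14.95, 14.93, 22.59 and 23.28 CPM, and the C1041G/+ libraries 2, 4, 6 and 8 had 42.01, 47.62, 66.24 and 56.61 CPM. The lowest C1041G/+ library lay above the highest wild-type library. The means were 53.1 ± 10.6 against 18.9 ± 4.62 CPM (SD, n = 4), a 2.81-fold difference (log2 fold change 1.49 ± 0.20 SE, edgeR adjusted p = 0.00081). It was the only member that passed by genotype in descending aorta, where 1 of 9 tested members was called higher and 0 lower. Of all 15645 genes tested there, 1.21% were called, 0.678% higher and 0.531% lower. In the same groups endothelial markers summed to 2095 to 2876 CPM in wild-type and 1804 to 2077 CPM in C1041G/+ libraries, and cartilage markers to 83.65 to 127.9 and 137.7 to 176.7 CPM; their part in the Tnfrsf11b level was not tested. In bulk tissue, fewer cells of a type and less RNA per cell cannot be told apart.

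In ascending aorta the genotypes overlapped. Tnfrsf11b stood at 34.86, 33.57, 53.78 and 50.35 CPM in wild-type libraries 1, 3, 5 and 7, and at 52.91, 57.99, 69.68 and 74.89 CPM in C1041G/+ libraries 2, 4, 6 and 8. The C1041G/+ library 2 lay below wild-type library 5, and the log2 fold change of 0.57 ± 0.19 SE did not pass (edgeR adjusted p = 0.15). Within wild-type mice Tnfrsf11b was 2.28-fold higher in ascending than in descending aorta, with no overlap (log2 fold change 1.19 ± 0.20 SE, edgeR adjusted p = 0.00060). Within C1041G/+ mice the same difference was 0.26 ± 0.19 SE (edgeR adjusted p = 0.51).

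Joining the regions by their shared library number gave a narrow spread. The log2 ratio of ascending to descending CPM of Tnfrsf11b was 1.11 to 1.25 in the 4 wild-type pairs (mean 1.19 ± 0.06 SD) and 0.07 to 0.40 in the 4 C1041G/+ pairs (0.27 ± 0.14 SD). The pairs of the genotypes did not overlap. The difference between the genotypes' effects in ascending and descending aorta, the interaction, was -0.92 ± 0.28 SE and did not pass in the fit without pairing (edgeR adjusted p = 0.61). With the library number as a block it was -0.91 ± 0.10 SE (edgeR adjusted p = 0.0015), and the regional difference within C1041G/+ mice was 0.27 ± 0.07 SE (adjusted p = 0.012). With the block, 0.0831% of all genes passed the interaction and 14.8% the regional comparison in C1041G/+ mice. Without it, 0 of 9 tested members passed the interaction, and 0.00639% of all genes were called. An unadjusted edgeR p under 0.05 was found for 3 members (Tnfrsf11b, Mgp and Alpl) and for 5.08% of all genes. DESeq2 also called 0 members, and 0.204% of all genes. It gave 3 of 10 members and 5.88% of all genes an unadjusted p under 0.05.

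**Figure D2:**
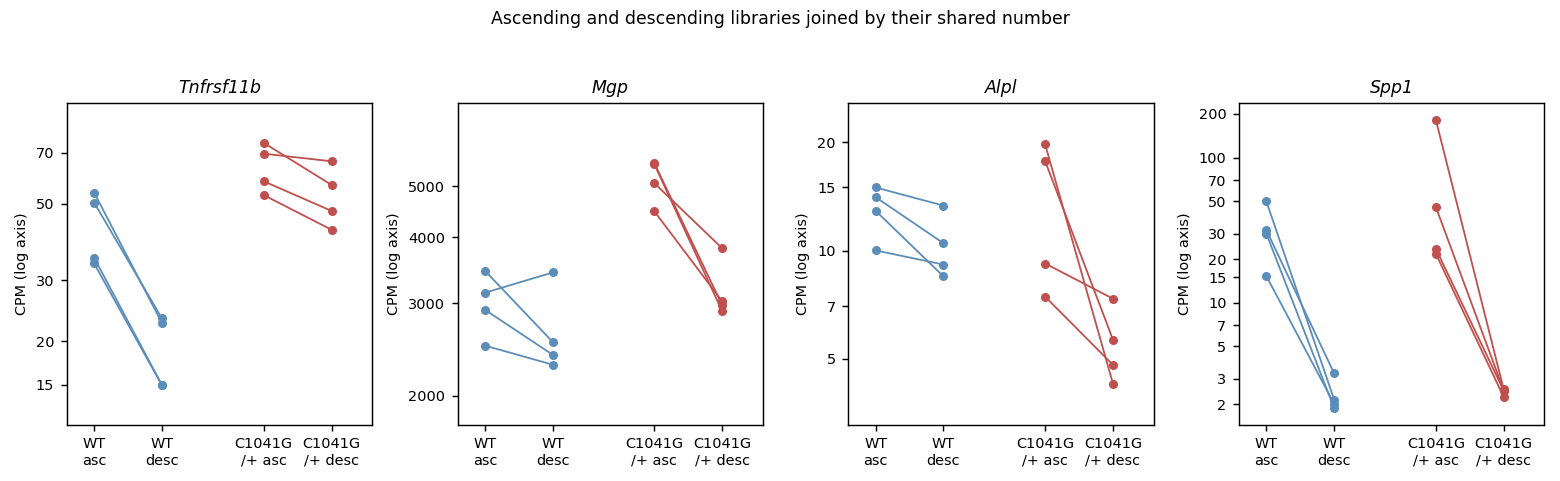
CPM (y axes, log scale) of Tnfrsf11b, Mgp, Alpl and Spp1 in ascending (asc) and descending (desc) aorta of wild-type (WT, blue) and C1041G/+ (red) mice; each line joins the libraries that share a number. The wild-type lines of Tnfrsf11b are nearly parallel (log2 ratio 1.11 to 1.25) and the C1041G/+ lines are flatter (0.07 to 0.40), whereas Spp1 drops steeply in all 8 pairs.

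Tnfrsf11a, which encodes the receptor RANK (chromosome 1, 105780718 to 105847981), passed no comparison. Its untreated group means lay between 46.3 ± 8.51 CPM (SD, n = 4) in wild-type descending and 49.6 ± 13.4 CPM in C1041G/+ descending aorta. The log2 fold changes by genotype were -0.04 (95% interval -0.40 to 0.33) in ascending and 0.10 (-0.27 to 0.47) in descending aorta, and by region 0.04 and -0.10. The ratio of Tnfrsf11b to Tnfrsf11a CPM was 0.313 to 0.674 in wild-type descending libraries and 0.711 to 1.63 in C1041G/+ descending libraries, without overlap. In ascending aorta that ratio was 0.597 to 1.24 and 1.05 to 1.76, which overlapped. The ratio compares counts of transcripts of unequal length and is read only between groups.

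Tnfsf11, which encodes the ligand RANKL (chromosome 14, 78277445 to 78308043), was near the detection limit, and the count filter removed it from both fits. It had 3, 2, 7 and 5 counts in wild-type and 59, 7, 4 and 9 counts in C1041G/+ ascending libraries. It had 0 counts in all 4 wild-type descending libraries and 1, 1, 0 and 0 in the C1041G/+ ones. The ascending libraries lay above the descending ones in both genotypes (exact permutation test of mean CPM, p = 0.029, the lowest value possible with 4 libraries a group, and 0.057 after adjustment over 6 tests). In wild-type mice the 17 ascending counts against 3, taken as the limit for the descending group at 0, gave a ratio of 5.23. This value leaves out the counting error of the 17 counts. In C1041G/+ mice the ratio of 79 to 2 counts was 36.2 (exact 95% interval 9.69 to 304), and without library 2 it was 12.9 (3.15 to 114). The genotypes in ascending aorta overlapped (exact permutation test, adjusted p = 0.13), with 0.892 ± 1.09 CPM (SD, n = 4) in C1041G/+ mice and 0.350 ± 0.119 CPM (n = 3) without library 2, against 0.211 ± 0.115 CPM in wild-type mice. Library 2, at 2.518 CPM of Tnfsf11, was also the one with 116.7 CPM of thymus and 37.21 CPM of lymphocyte markers. Wild-type ascending library 3 had 43.63 and 16.28 CPM of these markers and 0.08824 CPM of Tnfsf11. The part of these markers in the Tnfsf11 level was not tested. The exact intervals cover counting error only.

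Mgp, which encodes matrix Gla protein, the vitamin K-dependent calcification inhibitor of the vessel wall (ENSMUSG00000030218, chromosome 6, 136872435 to 136875823), was higher in C1041G/+ than in wild-type ascending aorta. Wild-type libraries 1, 3, 5 and 7 had 2491, 2914, 3457 and 3138 CPM, and C1041G/+ libraries 2, 4, 6 and 8 had 5526, 5503, 4479 and 5066 CPM. The groups did not overlap. The means were 5140 ± 491 against 3000 ± 406 CPM (SD, n = 4), a 1.71-fold difference (log2 fold change 0.78 ± 0.13 SE, edgeR adjusted p = 0.0041). Mgp was the only member called by genotype in ascending aorta, 1 of 9 tested, where 2.19% of all genes were called, 1.18% higher and 1% lower. In the same groups fibroblast markers summed to 2092 to 2605 CPM in wild-type and 1664 to 1999 CPM in C1041G/+ libraries, with 1 of 6 called higher and 1 lower. Macrophage markers summed to 665.9 to 769.3 and 836.9 to 1150 CPM, with 0 of 8 called. The sums of smooth muscle and of cartilage markers overlapped between the genotypes. Of these, 1 of 6 smooth muscle markers was called higher, and 1 of 9 tested cartilage markers higher and 2 lower. The part of all these markers in the Mgp level was not tested.

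The genotypes overlapped for Mgp in descending aorta. Wild-type libraries had 2291, 2393, 2531 and 3429 CPM and C1041G/+ libraries 2970, 2892, 3021 and 3811 CPM, so that wild-type library 7 lay among the C1041G/+ ones (log2 fold change 0.25 ± 0.13 SE, edgeR adjusted p = 0.53). Between regions, Mgp was 1.62-fold higher in ascending than in descending aorta of C1041G/+ mice (log2 fold change 0.70 ± 0.13 SE, edgeR adjusted p = 0.0018), without overlap. In wild-type mice the regional difference was 0.17 ± 0.13 SE (edgeR adjusted p = 0.55). Whether the genotype effect differed between regions did not pass either without or with the block (interaction 0.52 ± 0.19 SE, edgeR adjusted p = 0.76, and 0.27 with the block).

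Enpp1, which encodes the enzyme that makes pyrophosphate from ATP (chromosome 10, 24637914 to 24712159), was higher in ascending than in descending aorta of both genotypes. In wild-type mice the ascending libraries had 61.77, 55.02, 83.02 and 71.6 CPM and the descending libraries 44.3, 50.58, 49.01 and 45.5 CPM, with no overlap (log2 fold change 0.52 ± 0.14 SE, edgeR adjusted p = 0.017). That call was lost without ascending library 5 (adjusted p = 0.070) or 7 (0.051). In C1041G/+ mice the libraries had 61.74, 70.92, 80.42 and 87.09 CPM in ascending and 51.95, 50.33, 45.76 and 67.61 CPM in descending aorta. There descending library 8 lay above ascending library 2, and the log2 fold change was 0.48 ± 0.14 SE (edgeR adjusted p = 0.031). This call was lost in 6 of 14 alternatives, without ascending library 6 (0.080) or 8 (0.096), without descending library 2 (0.075), 4 (0.086) or 6 (0.11), and in a fit of only the groups compared (0.051). With the library number as a block, both regional calls held (edgeR adjusted p = 0.0043 in wild-type and 0.0066 in C1041G/+ mice). Enpp1 was higher in ascending aorta in all 4 pairs of each genotype. By genotype Enpp1 passed in neither region (0.15 ± 0.13 and 0.19 ± 0.14 SE).

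Ank, which encodes the membrane protein that exports pyrophosphate and ATP (chromosome 15, 27466677 to 27594909), passed no comparison. Its group means ran from 143 ± 16.9 CPM (SD, n = 4) in wild-type to 162 ± 17.2 CPM in C1041G/+ ascending aorta, and were 147 ± 5.18 and 159 ± 15 CPM in descending aorta. The intervals of its log2 fold changes by genotype, -0.02 to 0.38 and -0.09 to 0.31, and by region, -0.24 to 0.16 and -0.17 to 0.23, were the narrowest among the members. The ratio of Ank to Enpp1 CPM was lower in ascending libraries, at 1.91 to 2.28, than in descending libraries, at 2.66 to 3.45, in both genotypes.

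Alpl, which encodes tissue-nonspecific alkaline phosphatase, the enzyme that removes pyrophosphate (chromosome 4, 137741733 to 137796384), was higher in ascending than in descending aorta of C1041G/+ mice. The ascending libraries 2, 4, 6 and 8 had 19.71, 7.445, 17.72 and 9.204 CPM and the descending ones 4.269, 4.812, 5.653 and 7.35 CPM. The groups did not overlap, although ascending library 4 lay close to descending library 8. The log2 fold change was 1.29 ± 0.28 SE (edgeR adjusted p = 0.0051). The call held in 13 of 14 alternatives, among them each of 8 libraries left out in turn and the block (adjusted p = 0.011). Without both libraries numbered 2, an alternative chosen after seeing the data, the log2 fold change was 0.94 and did not pass (adjusted p = 0.066). In wild-type mice Alpl had 12.9, 10.01, 14.97 and 14.07 CPM in ascending and 8.479, 9.141, 13.33 and 10.48 CPM in descending aorta (log2 fold change 0.33 ± 0.27 SE, edgeR adjusted p = 0.57).

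Between genotypes in descending aorta all 4 C1041G/+ libraries of Alpl lay below all 4 wild-type libraries, at 5.52 ± 1.35 against 10.4 ± 2.15 CPM (SD, n = 4). The log2 fold change of -0.90 ± 0.28 SE did not pass in edgeR (adjusted p = 0.17), while DESeq2 gave an adjusted p of 0.045. Over its other alternatives the adjusted p ran from 0.059 to 0.41. Ibsp was the other member whose C1041G/+ libraries all lay below the wild-type ones there. Including Tnfrsf11b, 3 of 9 tested members did not overlap between genotypes in descending aorta, against 7.29% of all genes. In ascending aorta 1 of 9 did not, against 9.50%.

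Runx2, the bone transcription factor gene (chromosome 17, 44495987 to 44814797), was low in every group and passed no comparison. It had 28 to 63 counts in the untreated libraries, with means of 1.75 ± 0.313 and 2.06 ± 0.310 CPM (SD, n = 4) in wild-type and C1041G/+ ascending aorta and 2.27 ± 0.425 and 2.29 ± 0.772 CPM in descending aorta. The intervals by genotype were -0.29 to 0.76 in ascending and -0.51 to 0.53 in descending aorta on the log2 scale. Its exons overlap Runx2os1 on the opposite strand, and since the strand setting of the counting is not given in the sources used here, reads of the pair cannot be told apart.

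Spp1, which encodes osteopontin (chromosome 5, 104435118 to 104441050), had the largest regional difference of the members tested. In wild-type mice it stood at 15.3, 30, 50.07 and 31.73 CPM in ascending and at 2.011, 1.879, 2.154 and 3.265 CPM in descending aorta. Every ascending library was above every descending library, by 13.6-fold in the model (log2 fold change 3.77 ± 0.71 SE, edgeR adjusted p = 0.0027). In C1041G/+ mice the ascending libraries had 181.9, 45.65, 21.75 and 23.51 CPM and the descending ones 2.527, 2.491, 2.24 and 2.482 CPM (log2 fold change 4.81 ± 0.72 SE, edgeR adjusted p = 0.00053). Ascending library 2 was far above its group, and without it the log2 fold change was 3.64 (adjusted p = 1.2e-05). Mesothelial markers moved the same way, with all 6 called higher in ascending aorta in both genotypes, and so did heart muscle markers, with 6 of 8 called higher in wild-type and 5 of 8 in C1041G/+ mice; their part in the Spp1 level was not tested. Exons of Spp1 overlap the gene model Gm42793 on the same strand.

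By genotype Spp1 passed in neither region. In ascending aorta the log2 fold change was 1.11 ± 0.58 SE (edgeR adjusted p = 0.37), and without library 2 it was -0.07 (0.96). The C1041G/+ mean was 68.2 ± 76.6 CPM (SD, n = 4) with that library and 30.3 ± 13.3 CPM (n = 3) without it, against 31.8 ± 14.3 CPM in wild-type mice. Macrophage markers, of a cell type that makes osteopontin, summed to 1150 CPM in that library against 836.9 to 949.2 CPM in the other C1041G/+ ascending libraries, and their part was not tested. In descending aorta the genotypes had 2.33 ± 0.635 and 2.44 ± 0.132 CPM.

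Ibsp, which encodes bone sialoprotein (chromosome 5, 104299171 to 104311469), was detected at 2 to 32 counts in the untreated libraries. In descending aorta the wild-type libraries had 19, 20, 10 and 9 counts and the C1041G/+ libraries 6, 5, 2 and 3. The groups did not overlap, with means of 0.776 ± 0.290 and 0.218 ± 0.110 CPM (SD, n = 4), but the log2 fold change of -1.82 ± 0.58 SE did not pass (edgeR adjusted p = 0.18). In ascending aorta the means were 0.949 ± 0.530 and 0.416 ± 0.273 CPM and the groups overlapped (-1.14 ± 0.51 SE, edgeR adjusted p = 0.28). Markers of bone cells stood at low and at high levels beside it. Of the osteoblast list, Sp7, the osteoblast transcription factor gene, had group means of 0.111 to 0.482 CPM and Bglap, osteocalcin, 0 to 0.271 CPM, in the range of Ibsp. Sost and Col1a1, entries of the osteoblast list that cells of the vessel wall also express, stood at 941 to 1230 and 1230 to 2020 CPM. The 7 osteoclast markers summed to 37.71 to 108.8 CPM, most of it Ctsk (39.3 to 74.2 CPM in group means) and Acp5 (4.65 to 9.16 CPM), while Calcr had means of 0 CPM in both descending groups and up to 0.222 CPM elsewhere. Their part in the Ibsp level was not tested.

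**Figure D3:**
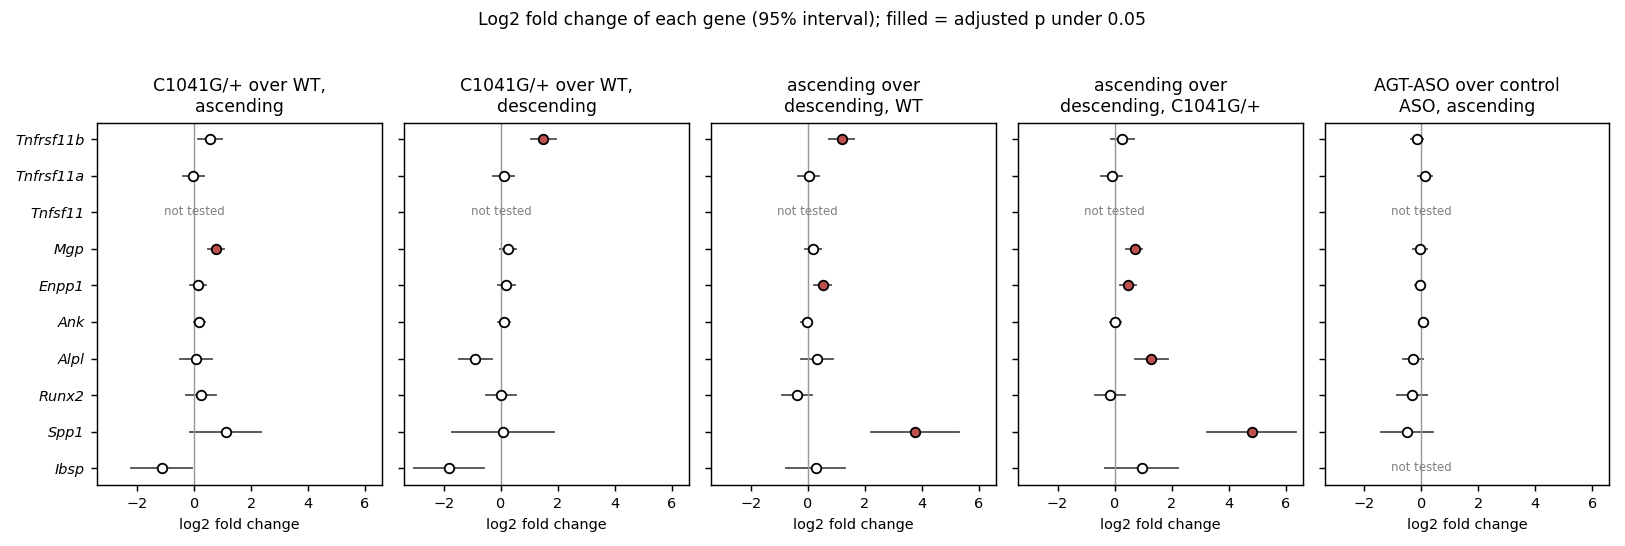
Log2 fold change (x axes) of the 10 genes (rows) in 5 comparisons (panels), with 95% intervals; filled points passed an adjusted p under 0.05, and genes removed by the count filter are marked as not tested. By genotype Mgp passes in ascending and Tnfrsf11b in descending aorta, by region Spp1 has the largest values in both genotypes, and with AGT-ASO no gene passes.

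Counted together, 3 of 9 tested members were called higher in ascending aorta in wild-type mice (Tnfrsf11b, Enpp1 and Spp1) and 4 of 9 in C1041G/+ mice (Mgp, Enpp1, Alpl and Spp1), and 0 were called lower in either. Of all genes 11.1% were called by region in wild-type mice, 7.82% higher and 3.31% lower, and 9.92% in C1041G/+ mice, 6.41% higher and 3.51% lower. In each genotype 3 members did not overlap between regions, against 14.5% and 14.4% of all genes. The median log2 fold change of the tested members was 0.28 and 0.48 by region, against -0.01 over all genes in both. By genotype it was 0.18 in ascending and 0.10 in descending aorta, against -0.01 and 0.00.

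With AGT-ASO against control ASO, no member passed the threshold in edgeR. Of 8 tested members 0 were called in edgeR, where 0.0668% of all genes were called. An unadjusted edgeR p under 0.05 was found for 0 members and for 12.7% of all genes. DESeq2 called 0 members and 1.71% of all genes. It gave 1 member and 15% of all genes an unadjusted p under 0.05. Tnfrsf11b stood at 56.39 to 67.32 CPM with AGT-ASO (median 63.95, n = 5) and 53.17 to 82.29 CPM with control ASO (median 72.21). Its log2 fold change was -0.16, with a 95% interval of -0.37 to 0.05. Mgp stood at 5121 to 7331 CPM and 5613 to 7545 CPM (interval -0.30 to 0.18). The groups of all 8 tested members overlapped, against 2.46% of all genes that did not.

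Among the remaining members, Enpp1 (interval -0.23 to 0.13), Ank (-0.09 to 0.20) and Tnfrsf11a (-0.13 to 0.38) had the narrower intervals of the log2 fold change with AGT-ASO. Alpl was 6.66 ± 0.565 against 8.26 ± 1.74 CPM (SD, n = 5; interval -0.66 to 0.04), Runx2 2.71 ± 0.637 against 3.38 ± 0.835 CPM (-0.85 to 0.21) and Spp1 12.2 ± 5.73 against 17.4 ± 7.22 CPM (-1.41 to 0.40). Heart muscle markers summed to 300.9 to 647.5 CPM with AGT-ASO and 648.8 to 1403 CPM with control ASO, and their part in these levels was not tested. Tnfsf11 had 12, 1, 3, 8 and 3 counts with AGT-ASO and 0, 1, 1, 0 and 0 with control ASO. The ratio of 27 to 2 counts was 15.8 (exact 95% interval 3.96 to 137, for counting error only), and the exact permutation test of mean CPM gave p = 0.016 and an adjusted p of 0.057 over 6 tests. Scaled to the library total without TMM, the same test gave an adjusted p of 0.048. An edgeR fit with no count filter tested all 10 members, Tnfsf11 among them, and called 0. Thymus markers summed to 0.1127 to 4.471 CPM in the AGT-ASO and 0.05666 to 1.804 CPM in the control libraries. Mesothelial markers summed to 501.1 CPM in AGT-ASO library 14, the one with 12 counts of Tnfsf11. They summed to 187.3 to 240.1 CPM in the rest of that group and to 281.4 to 341.1 CPM in the control libraries. The part of these markers in the Tnfsf11 level was not tested. Ibsp had 1 to 9 and 0 to 18 counts (exact permutation test, adjusted p = 0.54).

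Genes of the surrounding pathways were read from 5 lists of 95 genes. In ascending aorta the C1041G/+ genotype called 1 gene in each of 4 lists, all higher: Postn, the matrix protein periostin, with 5090 ± 295 against 3270 ± 301 CPM (log2 fold change 0.64, edgeR adjusted p = 0.0045); Gas6, a vitamin K-dependent ligand, from 812 ± 25.4 to 1030 ± 33.7 CPM (0.35, adjusted p = 0.012); Itga5, an integrin subunit, from 324 ± 48.4 to 614 ± 173 CPM (0.92, 0.025); and Fgfr1 from 293 ± 17 to 349 ± 16.6 CPM (0.25, 0.046). The lists had 13, 9, 17 and 21 tested genes for vitamin K and mineral-binding proteins, osteopontin receptors, phosphate and pyrophosphate handling, and osteogenic regulators and matrix, and 0 of 16 genes of RANK signalling were called. Of all genes 2.19% were called there, 1.18% higher. The call of Fgfr1 was lost whichever of the 8 libraries was left out (adjusted p 0.051 to 0.10). That of Itga5 was lost without C1041G/+ library 2 (0.098) or 4 (0.080) or wild-type library 3 (0.067), 5 (0.089) or 7 (0.072). With no count filter both calls were lost (edgeR adjusted p = 0.13 for Fgfr1 and 0.09 for Itga5). A fit of only the groups compared also ended the call of Fgfr1 (0.14).

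In descending aorta 2 genes of the lists passed by genotype, where 1.21% of all genes did. Cd44, an osteopontin receptor, rose, with 56.8 ± 6.08 CPM in wild-type and 85.3 ± 6.02 CPM in C1041G/+ libraries (log2 fold change 0.59, edgeR adjusted p = 0.040) and lost its call whichever of the 8 libraries was left out (0.061 to 0.13). Nt5e, the ecto-enzyme that makes adenosine from AMP, fell from 29.1 ± 3.53 to 20.7 ± 2.18 CPM (-0.49, adjusted p = 0.034), and lost its call without wild-type library 1 (0.12), 3 (0.061) or 5 (0.069) or C1041G/+ library 2 (0.094), 4 (0.12) or 6 (0.088). A fit of only the groups compared also ended the call of Nt5e (edgeR adjusted p = 0.064). The remaining lists had 0 of 16, 0 of 13 and 0 of 21 tested genes called. Nt5e also differed by region, at 14.6 ± 0.901 CPM in wild-type ascending against 29.1 ± 3.53 CPM in descending aorta, and at 11.3 ± 1.47 against 20.7 ± 2.18 CPM in C1041G/+ mice (log2 fold change -0.99 and -0.87, adjusted p = 5.3e-06 and 3.7e-05).

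By region, osteogenic regulators and matrix had 5 genes higher and 3 lower of 21 tested in wild-type mice, and 7 higher and 4 lower in C1041G/+ mice. Of all genes, 7.82% were called higher and 3.31% lower in wild-type mice, and 6.41% and 3.51% in C1041G/+ mice. Msx1, a homeobox gene, was higher in ascending aorta in both (log2 fold change 1.04 and 1.12, edgeR adjusted p = 4.1e-06 and 2.3e-06), as were the cartilage regulator gene Sox9 (2.34 and 1.91, 0.00038 and 0.0033) and the cadherin gene Cdh11 (1.91 and 0.98, 0.00010 and 0.019). The regions overlapped for Sox9 in C1041G/+ mice, at 2.174 to 11.23 CPM in ascending and 1.685 to 2.239 CPM in descending aorta. Smoc1 was lower in ascending aorta in both genotypes (-0.84 and -0.69, 3.9e-06 and 4.5e-05). Postn was higher in ascending aorta of C1041G/+ mice (0.57, 0.0020) and stood at 3270 ± 301 CPM in wild-type ascending aorta. Cartilage markers summed to 144.4 to 414.3 CPM in ascending and 83.65 to 127.9 CPM in descending wild-type libraries, and to 165.9 to 217.4 and 137.7 to 176.7 CPM in C1041G/+ libraries, which overlapped. Their part was not tested.

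Secreted mineral-binding proteins had 4 genes higher and 1 lower of 13 tested in wild-type mice, and 3 higher and 0 lower in C1041G/+ mice, beside the same 7.82% and 3.31%, and 6.41% and 3.51%, of all genes. Ahsg, fetuin-A, a circulating calcification inhibitor made mainly by liver, averaged 49.8 ± 21.7 CPM in wild-type ascending and 5.82 ± 2.52 CPM in descending aorta (log2 fold change 3.09, edgeR adjusted p = 5.1e-06). Its value in C1041G/+ mice was 2.86 (1.8e-05). Fetub, its relative, stood at 4.81 ± 0.611 and 0.224 ± 0.119 CPM in wild-type mice (4.36, 2.1e-08). Sparc, osteonectin, was lower in ascending aorta of wild-type mice (-0.60, 0.0023).

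In RANK signalling 2 of 16 tested genes were called by region in each genotype, near the 11.1% and 9.92% of all genes called. Those higher in wild-type ascending aorta were Map3k14 (log2 fold change 0.46, edgeR adjusted p = 0.015) and Nfkb2 (0.39, 0.044), which encode a kinase and a subunit of the alternative NF-κB pathway. In C1041G/+ mice Nfkb2 was higher (0.46, 0.018) and Lgr4, a second receptor for RANKL, lower (-0.35, 0.025). Leaving out 1 library ended the call of Map3k14 in 1 of 8 cases (wild-type descending library 3, 0.056), and of Lgr4 in 5 of 8 (ascending library 2 or 4 or descending library 4, 6 or 8, 0.055 to 0.093). Nfkb2 lost its call in 5 of 8 cases in wild-type mice (ascending library 5 or 7 or descending library 1, 3 or 5, 0.084 to 0.18) and in 3 of 8 in C1041G/+ mice (ascending library 2 or descending library 4 or 6, 0.050 to 0.054). A fit of only the groups compared also ended the calls of Map3k14 (0.057), of Lgr4 (0.056) and of Nfkb2 in wild-type mice (0.11). Itga4, an integrin subunit that binds osteopontin, was higher in ascending aorta in both genotypes (0.71 and 0.92, 0.0038 and 0.00047). The phosphate transporter gene Slc20a2 was lower in C1041G/+ ascending aorta (-0.39, 0.0093), a call lost without both libraries numbered 2 (-0.35, 0.072), and Itgb5 was higher (0.33, 0.022), a call lost without ascending library 2 (0.053) or 4 (0.053) or descending library 6 (0.083). The medians of the lists' log2 fold changes ran from -0.15 to 0.14 by genotype and from -0.21 to 0.22 by region, against -0.01 to 0.00 over all genes. No gene of the 5 lists passed the interaction or the AGT-ASO comparison in edgeR.

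**Figure D4:**
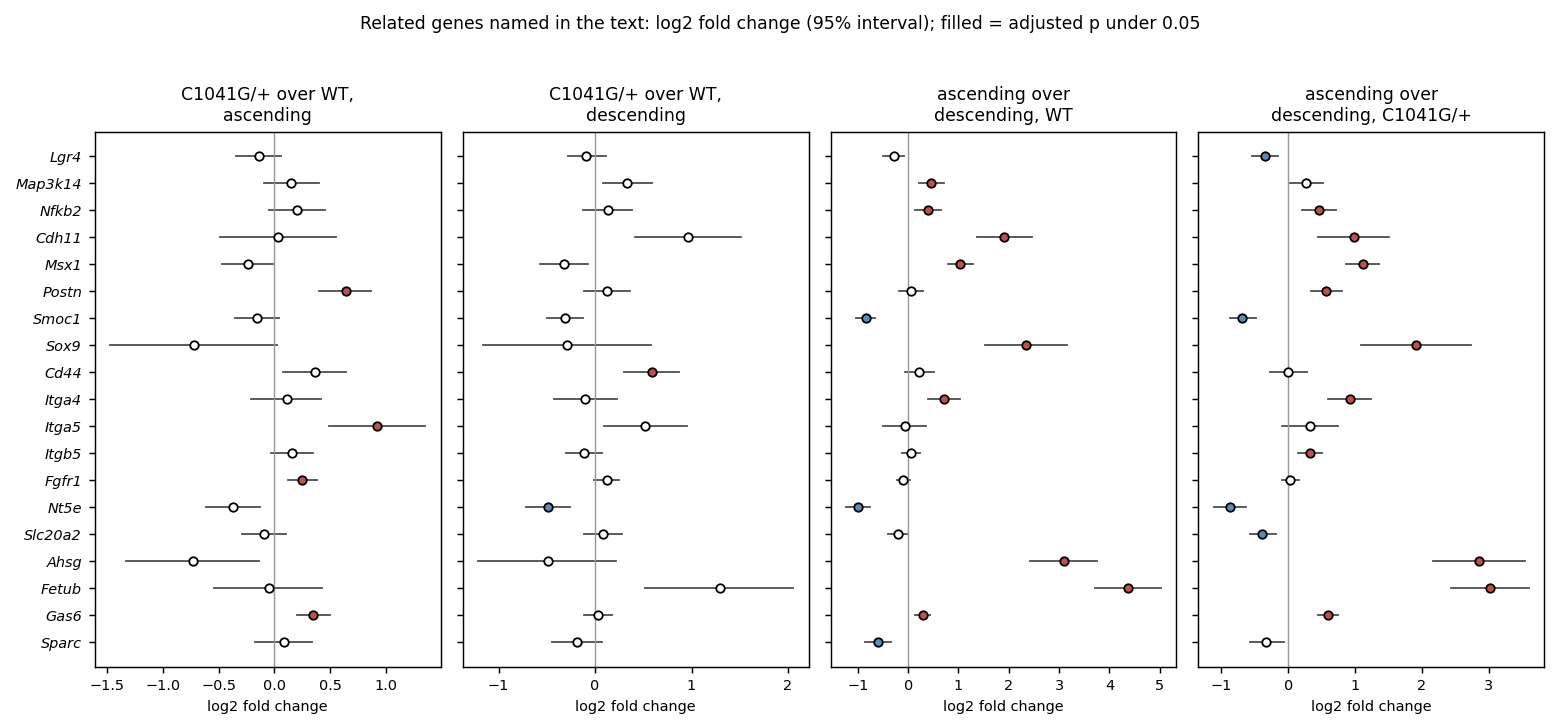
Log2 fold change (x axes, each panel with its own range) with 95% intervals of the 19 related genes named in the text (rows) in 4 comparisons (panels); filled points passed an adjusted p under 0.05, red higher and blue lower. Fetub and Ahsg have the largest regional differences, and Postn, Gas6, Itga5 and Fgfr1 pass by genotype in ascending aorta.

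The genes whose log2 CPM followed a member most closely over the 16 untreated libraries were found among 13855 genes, as a description that also carries region, genotype and tissue content. For Tnfrsf11b they were Rarres1 (Pearson r = 0.952), Fzd1 (0.924) and Lbh (0.923), and for Mgp Cd151 (0.930), Gapdh (0.930) and Calm2 (0.918). Spp1 was followed by B3gnt7 (0.966), Krt14 (0.963) and Slc6a14 (0.961), which had mean levels of 0.994, 1.61 and 0.991 CPM. Enpp1 was followed by Creg2 (0.932), Sqstm1 (0.918) and Dkk3 (0.900), Ank by Tor1aip2 (0.929), Tnfrsf11a by Pdzd2 (0.930) and Runx2 by H2-K1 (0.883). Among the members themselves the highest value was 0.71, between Mgp and Tnfrsf11b, and Enpp1 followed Spp1 at 0.69 and Tnfrsf11b at 0.68.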

How the data were processed

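RNA-seq libraries of mouse aorta were compared by genotype, region and antisense treatment. The authors deposited a file of raw, unnormalized counts by Ensembl gene for each library. Per the submitters' processing notes, fastp, STAR 2.6.1d and mm10 were used; the sources used here give no counting tool, strand setting or annotation release. Names, positions and exon lengths came from GENCODE M21 (54495 of 54532 identifiers named), and promoters from RefSeq.

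CPM is the count divided by the TMM-scaled library total. edgeR 4.0.16 in R 4.3.3 was run with TMM, filterByExpr by group and robust quasi-likelihood F tests, two-sided. The 16 untreated libraries were fitted together (15645 genes, 12 residual degrees of freedom, biological coefficient of variation 15.9%) and the 10 antisense libraries apart (14981 genes, 8, 17.1%). Members removed by the filter had exact permutation tests. The test was checked on simulated counts. Alternatives were DESeq2 1.42.0, its size factors, no filter, only the groups compared, a replicate block (random for genotype within a region, with limma 3.58.1 voom) and each library left out.

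After group means were removed, r across genes was 0.204 to 0.367 in the 8 ascending and descending pairs with equal numbers, and -0.0413 on average in other pairs. Equal numbers were taken as a pair. Blocked values are printed where they change a call, and for some other results.

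Named genes were the 10 members, up to 4 called genes with the smallest p per list and comparison, and, for each member with a mean of at least 1 CPM, the 3 genes most like it at any level. A gene named by this last step is left unreported. Members and lists were chosen with earlier results of these data known. Library totals of 17171652 to 28554356 limit low genes: 3 counts are the floor for a group at 0.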

Additional observations from a re-analysis of the deposited data

Results flagged for a closer look

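In 6 of 60 groups of a member, 1 library lay far from the others of its group by Dixon's gap test, and chance flags about 1 in 20 groups. C1041G/+ ascending library 2 had 2.518 CPM of Tnfsf11 (59 counts) against 0.2181 to 0.4502 CPM in the rest of its group, and 181.9 CPM of Spp1 against 21.75 to 45.65 CPM. Wild-type ascending library 1 had 58.36 CPM of Tnfrsf11a against 43.32 to 44.87 CPM. C1041G/+ descending library 8 had 3811 CPM of Mgp against 2892 to 3021 CPM, and library 6 of that group had 2.24 CPM of Spp1 against 2.482 to 2.527 CPM. AGT-ASO library 19 had 7.652 CPM of Alpl against 6.27 to 6.536 CPM.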

How the results depend on the processing

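The number of members called by genotype in descending aorta was 1 and became 2 with DESeq2, which added Alpl, and the interaction went from 0 to 1 with the replicate block, which added Tnfrsf11b. The block added Tnfrsf11b by region in C1041G/+ mice and changed no other member's call. With 1 library left out, the count was 1 to 1 by genotype in each region, 2 to 3 by region in wild-type and 3 to 4 in C1041G/+ mice, and 0 to 0 for the interaction and AGT-ASO. Mgp in ascending and Tnfrsf11b in descending aorta passed by genotype in all 14 alternatives. Of 434 refits of called related genes, 58 no longer passed and 0 reversed. Over all genes, calls by genotype in ascending aorta were 342 in edgeR, 774 with DESeq2 and 161 without both libraries numbered 2; in descending aorta 189 and 407 with DESeq2. The interaction had 1 call, 36 with DESeq2, 6 with no filter and 13 with the block, and AGT-ASO 10, 259 with DESeq2 and 147 with no filter. Tnfsf11 passed by region in both genotypes with no filter and with DESeq2. With AGT-ASO its exact permutation test passed when counts were scaled without TMM (adjusted p = 0.048 over 6 tests). For that comparison edgeR with no filter tested all 10 members and called 0. The causes were not tested. Runx2, Ibsp and Tnfsf11 had few counts, which limits their precision.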
